A study of Homo sapiens with 2 samples.

Results

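The collagen genes of TE-1 cells were compared between cells given a PAX2 expression vector and cells given the empty vector. A collagen gene was any gene that the array annotation names COL, a type number, A and a chain number, which gave 72 features of 41 genes out of 45033 features and 23595 genes in all. A feature is the deposited value of 1 transcript, summarised from 3 probes. TE-1 is an established human oesophageal carcinoma line. The PAX2 group was TE-1 transfected with PCDNA3.1-Pax2 and the control group was TE-1 transfected with PCDNA3.1, each read 24 h after transfection on 1 single-colour Cy3 array. The labels give no selection, clone or transfection efficiency, so untransfected cells can be part of either culture. Neither condition was replicated, no p-value is given, and every difference below describes these 2 arrays.

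Collagens are secreted or membrane proteins in which 3 chains wind into a triple helix. Type IV forms the sheet of basement membranes, types I, II, III, V and XI form striated fibrils, type VII anchors stratified epithelia to the tissue below, and smaller types decorate fibrils, span the plasma membrane or sit near basement membranes. Epithelial cells of the oesophagus rest on a basement membrane and are known to make some of these chains themselves, while most fibril-forming collagen of tissue comes from fibroblasts.

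The median intensity over all features was 210.1 on the PAX2-labelled array and 205.2 on the control array, against 19.3 and 20.6 for probes of random sequence. The transferred gene did not check the labels: the 1 feature of PAX2 had intensities of 22.1 on the PAX2-labelled array and 22.2 on the control array, close to the random probes, and the positions of its probes are not given in the files. The name PAX2-labelled is therefore used for that array. The files hold no detection call. A feature was taken as within the silent range on an array when it was at or below the 95th percentile of 390 features of olfactory receptor genes, which are active mainly in the nose (log2 6.86 on the PAX2-labelled array and 7.05 on the control array). Of 11 squamous or epithelial markers 6 were measured, among them KRT14 (log2 11.27 on the PAX2-labelled array and 11.10 on the control array) and KRT8 (14.51 and 14.22 on those arrays). As gene means, the keratins KRT6A (6.63 and 7.02) and KRT19 (5.14 and 5.16) were within the silent range on both, as were TP63 (6.23 and 6.08) and CDH1 (5.69 and 5.85).

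No measured collagen gene differed 2-fold between the arrays. A gene counted as measured when the mean log2 intensity of its features was at or above the all-feature median on either array. 14 of the 41 collagen genes did, 13 of them on both arrays, and COL4A6 only through the control array. Over all 11628 measured genes the 2-fold threshold was passed upward by 1.13% and downward by 1.16%, so a set of 14 genes with no call is near the background. The differences of the 14 genes (log2, PAX2-labelled minus control) ran from -0.54 to 0.46 with a median of 0.21, against 0.02 over all measured genes. 9 (64.3%) were above 0 and 5 (35.7%) below, against 53.4% above and 46.5% below among all measured genes. At 1.5-fold none of the 14 was called either, against 4.51% higher and 3.22% lower among all measured genes. Single features of the same gene scattered by an SD of 0.31 around their mean over 6174 genes with several measured features, so differences below that size are within the scatter between features. This SD comes from 1 pair of arrays and measured features only, so variation between replicate cultures is not in it.

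**Figure D1:**
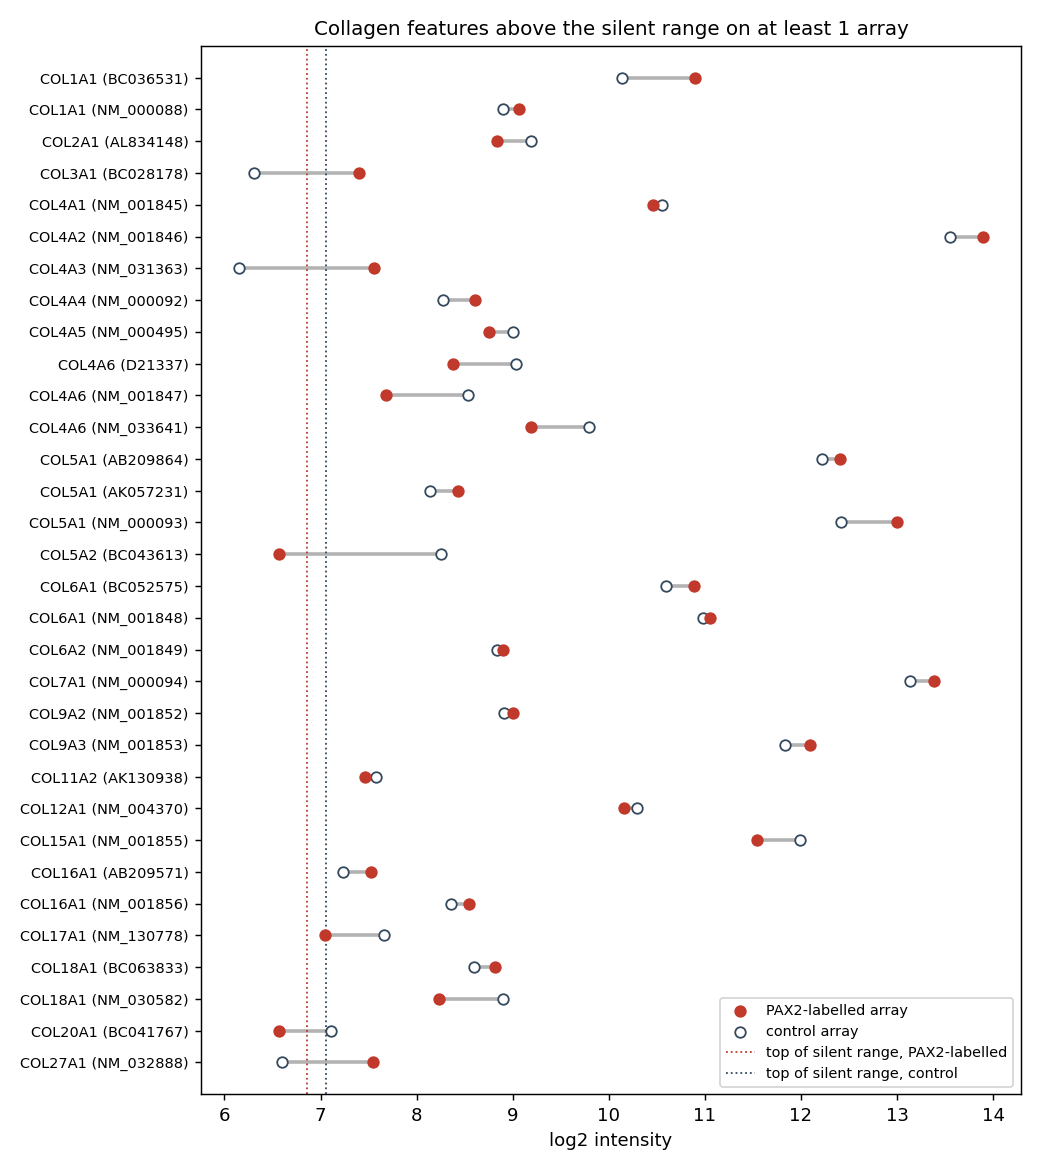
Log2 intensity of the collagen features above the silent range on at least 1 array, with filled points for the PAX2-labelled array, open points for the control array and dotted lines at the top of each array's silent range. The 3 bright features of COL4A6 lie to the left on the PAX2-labelled array, those of COL5A1 and COL1A1 to the right, and the longest bar is that of COL5A2, whose PAX2-labelled value is within the silent range.

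Of the 72 collagen features, 27 (37.5%) were above the silent range on both arrays, 5 on 1 array and 40 on neither, against 54.4% of all features above it on both. The 27 features belong to 19 genes. None of them differed 2-fold, against 0.959% higher and 0.669% lower among the 24514 features above the range on both arrays. At 1.5-fold, 1 was higher (3.70% of the 27, against 5.74% of all such features) and 5 were lower (18.5%, against 3.12%). These shares are not matched for brightness. With all features cut into 20 bins by brightness, the 5 lower ones lie in bins 10 to 14, counted from the dimmest. In those bins the 5th percentile of all differences runs from -0.94 to -0.47. 3 of the 5 lower features belong to 1 gene, COL4A6, whose transcripts overlap and may share probes. Without COL4A6, 2 of 24 features (8.33%) were at least 1.5-fold lower. Levels of different features were not compared, since probes differ in brightness for reasons other than RNA amount.

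**Figure D2:**
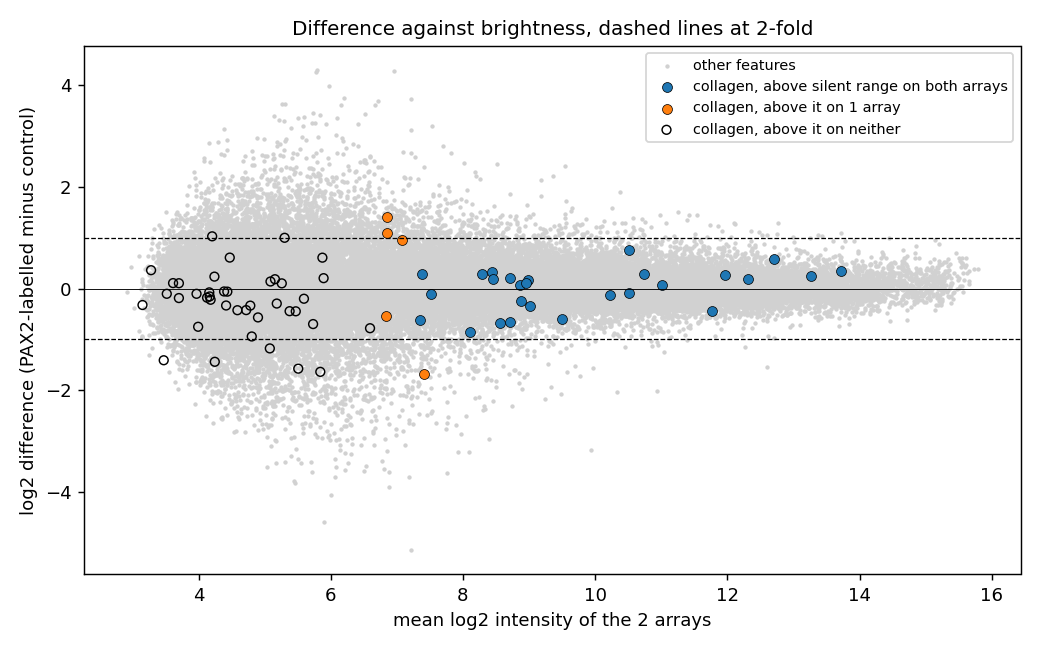
Log2 difference (PAX2-labelled minus control) against the mean log2 intensity of the arrays, for all features in grey and collagen features in colour by the silent range. Collagen features above the range on both arrays stay between the dashed 2-fold lines, and the grey cloud is wider among dim features, where the open collagen points scatter up to -1.64 and 1.03.

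Type IV collagen, the network of basement membranes, differed by less than 2-fold in every feature above the silent range on both arrays. Of these 7 features 2 were above 0 and 5 below, and 3 of the 5 belong to COL4A6. The 2 above 0 are 1 feature each of COL4A2 and COL4A4, so no shared or opposed direction is read for the chains. COL4A6, which with COL4A5 builds the type IV network known under smooth muscle and the epithelia of skin and oesophagus, was lower on the PAX2-labelled array in all 3 of its features above the silent range. Its feature NM_033641 had an intensity of 585.5 on the PAX2-labelled array and 887 on the control array, a log2 difference of -0.60. Its feature D21337 had 332.2 on the PAX2-labelled array and 523.9 on the control array (-0.66), and NM_001847 had 205.1 and 370.4 on those arrays (-0.85). In that order these are 1.51-fold, 1.58-fold and 1.81-fold lower, and they lie at the 3.06th, 2.80th and 3.95th percentile of the differences of features of like brightness (20 bins of 5% of all features). The 4th feature, BC005305, was within the silent range on both arrays (log2 4.41 and 4.46). All 4 together gave a gene difference of -0.54.

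The partner of COL4A6 in that network, COL4A5, had 1 feature above the range, with an intensity of 431.7 on the PAX2-labelled array and 512.7 on the control array (log2 difference -0.25). That is smaller than the scatter between features. Loss of COL4A5 causes Alport syndrome, and deletions that reach into COL4A6 add a smooth muscle overgrowth of the oesophagus in patients. The second feature of COL4A5, BC035387, was within the silent range (log2 4.36 and 4.12).

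COL4A1 and COL4A2, the chains of the basement membrane network found in nearly all tissues, had 1 feature each. COL4A2 had an intensity of 15255 on the PAX2-labelled array and 11997 on the control array, 1.27-fold higher (log2 difference 0.35, the 89.5th percentile of its brightness bin). COL4A1 had 1411 on the PAX2-labelled array and 1498 on the control array (-0.09). The COL4A1 value is within the scatter between features, so no opposite direction is read for this pair.

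COL4A3 and COL4A4 join COL4A5 in the network of the kidney filter. COL4A4 had an intensity of 390.2 on the PAX2-labelled array and 309.8 on the control array (log2 difference 0.33). That lies at percentile 76.3 of its brightness bin, where the SD of differences was 0.46. COL4A3 gave no steady value: feature NM_031363 exceeded the silent range only on the PAX2-labelled array (log2 7.56 against 6.15, at least 1.42-fold higher), while NM_000091 of the same gene span had log2 6.20 on the PAX2-labelled array and 6.98 on the control array, within the range on both. The kidney is a tissue that PAX2 is known to help form.

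The type IV genes lie head to head in 3 pairs, each pair transcribed in opposite directions from neighbouring starts. In the array annotation (build HG18) 171 bases separate COL4A1 (chromosome 13, 109599310 to 109757459) from COL4A2 (109757631 to 109963375). COL4A6 (chromosome X, 107285501 to 107569383) and COL4A5 (107569809 to 107827431) are 425 bases apart. That COL4A6 end is the end of BC005305, its feature within the silent range on both arrays. COL4A4 and COL4A3 on chromosome 2 are 4 bases apart in this annotation. Promoter windows from RefSeq (build GRCh38.p14, 250 bases before to 50 after each start) share 226 bases between COL4A1 and COL4A2, and 121 bases between COL4A5 and the COL4A6 window nearest to it. Those of COL4A4 and COL4A3 share 82 bases, with starts 419 bases apart in that build. The windows of COL4A1, COL4A2, COL4A5 and COL4A6 are shown because the genes of a pair share a stretch. The differences of these genes on the arrays are given above. On HG18 the COL4A6 features D21337 and NM_033641 end at 107568316 and NM_001847 at 107569367. The gene is on the minus strand, so their annotated starts differ. The printed COL4A6 window need not be that of D21337 and NM_033641. Each window is printed along its own gene's strand, with CCAAT and GGGCGG on either strand in capitals.
COL4A2, chr13:110307034-110307333, plus strand: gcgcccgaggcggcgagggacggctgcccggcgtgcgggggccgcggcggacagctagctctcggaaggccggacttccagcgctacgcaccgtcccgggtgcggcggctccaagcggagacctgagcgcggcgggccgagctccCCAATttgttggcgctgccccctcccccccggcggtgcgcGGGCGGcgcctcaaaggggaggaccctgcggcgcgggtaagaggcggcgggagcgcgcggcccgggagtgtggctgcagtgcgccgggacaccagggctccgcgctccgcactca
COL4A1, chr13:110307108-110307407, minus strand: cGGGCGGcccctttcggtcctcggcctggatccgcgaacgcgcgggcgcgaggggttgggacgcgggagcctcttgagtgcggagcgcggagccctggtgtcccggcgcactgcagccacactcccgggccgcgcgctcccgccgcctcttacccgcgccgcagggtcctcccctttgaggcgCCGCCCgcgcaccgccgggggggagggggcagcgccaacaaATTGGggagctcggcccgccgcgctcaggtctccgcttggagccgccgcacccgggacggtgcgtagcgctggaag
COL4A6, chrX:108439409-108439708, minus strand: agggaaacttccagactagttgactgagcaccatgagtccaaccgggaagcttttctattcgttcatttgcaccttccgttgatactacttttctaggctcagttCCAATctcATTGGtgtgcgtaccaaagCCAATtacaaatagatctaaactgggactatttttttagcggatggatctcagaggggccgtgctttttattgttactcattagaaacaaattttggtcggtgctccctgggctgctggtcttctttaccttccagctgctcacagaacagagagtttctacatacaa
COL4A5, chrX:108439588-108439887, plus strand: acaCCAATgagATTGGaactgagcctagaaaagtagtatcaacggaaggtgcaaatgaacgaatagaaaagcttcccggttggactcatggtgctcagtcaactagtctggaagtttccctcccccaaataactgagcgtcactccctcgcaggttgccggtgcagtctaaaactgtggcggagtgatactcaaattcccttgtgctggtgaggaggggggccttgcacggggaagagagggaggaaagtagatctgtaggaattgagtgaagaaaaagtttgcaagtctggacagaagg

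The windows of COL4A2 and COL4A1 are 77.7% and 76.7% G or C, with 1 CCAAT each and 1 and 2 copies of GGGCGG, whereas those of COL4A6 and COL4A5 are 43.7% and 49.3% G or C, with 3 and 2 copies of CCAAT and no GGGCGG. A second COL4A6 window, at another start, is 50% G or C with 0 CCAAT and 1 GGGCGG. The windows of COL4A3 and COL4A4 are 67.7% and 74.0% G or C, with no CCAAT and with 2 and 0 copies of GGGCGG. Over the 42 promoter windows found for 30 of the 41 collagen genes, 33.3% held CCAAT and 54.8% GGGCGG on either strand, against 34.6% and 45.0% of all 35116 windows of this length. TATAAA was in 16.7% of the collagen windows and 11.5% of all. GTCACGC, a core of the consensus sites of the PAX2, PAX5 and PAX8 paired domain, was in 0 of the 42 collagen windows and in 2.52% of all windows. No match says only that these letters are not in these windows.

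**Figure D3:**
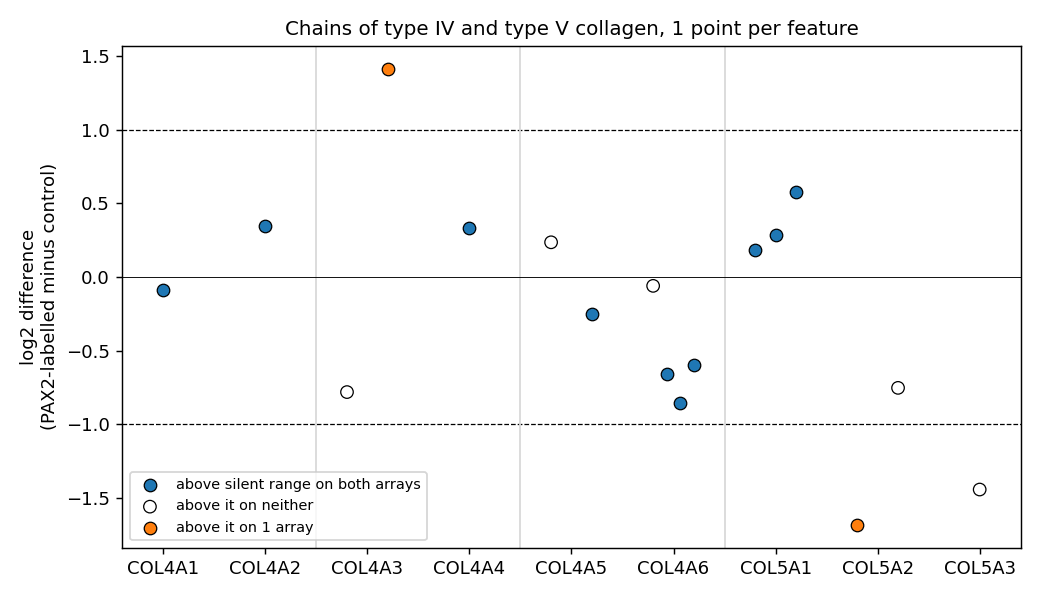
Log2 difference (PAX2-labelled minus control) of each feature of the type IV and type V collagen genes, 1 point per feature, filled by whether the feature was above the silent range on both arrays, 1 array or neither, with dashed lines at 2-fold and grey upright lines setting the head-to-head pairs apart. The bright features of COL4A6 sit between -0.60 and -0.85 and those of COL5A1 between 0.18 and 0.58.

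Among the fibrillar collagens, COL5A1 and COL1A1 were higher on the PAX2-labelled array in every feature, by less than 2-fold. COL5A1, a chain of the minor fibrillar collagen that starts type I fibrils, had intensities of 8167 on the PAX2-labelled array and 5471 on the control array in NM_000093 (1.49-fold, log2 difference 0.58). Its other features had 5421 and 4781 (AB209864, 0.18) and 343.8 and 281.5 (AK057231, 0.29) on those arrays. In their brightness bins NM_000093 lies at percentile 97.7, AB209864 at 79.0 and AK057231 at 73.3, and the mean of the 3 features was 0.35.

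COL1A1, the major chain of type I collagen, had intensities of 1905 on the PAX2-labelled array and 1126 on the control array in BC036531, 1.69-fold higher (log2 difference 0.76, 97.8th percentile of its bin). Its second feature, NM_000088, had 537.4 on the PAX2-labelled array and 478.2 on the control array (0.17). Their mean was 0.46, and NM_000088 lies at percentile 66.0 of its bin. COL1A2, the chain that joins COL1A1 in type I collagen, was within the silent range in both features, with log2 intensities of 5.16 and 5.80 on the PAX2-labelled array and 5.02 and 4.80 on the control array.

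COL5A2, which pairs with COL5A1 in type V collagen, had the largest difference of the features above the silent range on at least 1 array. BC043613 had log2 intensities of 6.57 on the PAX2-labelled array and 8.25 on the control array. The PAX2-labelled value is within the silent range, so the feature was at least 2.62-fold lower, and it was singled out after its value was seen. The second feature, NM_000393, was within the range on both arrays (log2 3.62 on the PAX2-labelled array and 4.37 on the control array). The third type V chain, COL5A3, was also within it (3.52 and 4.97).

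The other fibrillar genes were dim or uneven. COL2A1, the cartilage collagen, had intensities of 458 on the PAX2-labelled array and 582.3 on the control array in AL834148 (log2 difference -0.35), and its full-length feature NM_001844 was within the silent range (13.5 and 12.5). COL11A2 had 1 feature just above the range on both arrays (log2 7.46 on the PAX2-labelled array and 7.57 on the control array). COL3A1, partner of type I fibrils in soft tissue, exceeded the range only on the PAX2-labelled array in BC028178 (log2 7.40 against 6.30, at least 1.27-fold higher). COL27A1 was likewise above it on the PAX2-labelled array alone in NM_032888 (7.55 against 6.60, at least 1.41-fold higher). COL11A1 and COL24A1 were within the range on both arrays.

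Type VI collagen forms beaded filaments around cells. COL6A1 had intensities of 1899 on the PAX2-labelled array and 1547 on the control array in BC052575 (log2 difference 0.30), and 2119 and 2013 on those arrays in NM_001848 (0.07). COL6A2, its neighbour on chromosome 21, had 478.8 on the PAX2-labelled array and 455.5 on the control array in NM_001849 (0.07), while its other 2 features were within the silent range. Both features of COL6A3, the chain that completes the usual type VI trimer, were within it. COL28A1, a relative of type VI, was also within the range in both features.

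Stratified epithelium is fastened to its base by types VII and XVII. COL7A1, the protein of anchoring fibrils, whose loss blisters the skin and scars the oesophagus, had an intensity of 10720 on the PAX2-labelled array and 9011 on the control array in its 1 feature (1.19-fold higher, log2 difference 0.25). COL17A1, the transmembrane collagen of hemidesmosomes, had 132 on the PAX2-labelled array and 202.7 on the control array in NM_130778 (1.54-fold lower, -0.62). That lies at percentile 11.1 of its bin, in a range of brightness where the SD of differences was 0.64. The second COL17A1 feature was within the silent range. The other transmembrane collagens, COL13A1, COL23A1 and COL25A1, were within it in every feature.

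The fibril-associated collagens, which bind to the surface of fibrils, were close to even. COL9A3 had an intensity of 4381 on the PAX2-labelled array and 3656 on the control array (log2 difference 0.26), and COL9A2 had 514.8 and 480.1 on those arrays (0.10). COL9A1, the third chain of type IX, was within the silent range (17.4 and 18.4), so its partners were read without it. COL12A1 had 1140 on the PAX2-labelled array and 1251 on the control array (-0.13). COL16A1 had differences of 0.19 and 0.29 in its 2 features. COL20A1 was above the range on the control array alone in 1 feature (log2 6.57 on the PAX2-labelled array and 7.11 on the control array). COL14A1, COL19A1, COL21A1 and COL22A1 were within it.

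The multiplexins, COL15A1 and COL18A1, lie in or near basement membranes, and COL18A1 yields endostatin, an inhibitor of vessel growth, from its end. COL15A1 had an intensity of 2985 on the PAX2-labelled array and 4063 on the control array, 1.36-fold lower (log2 difference -0.45, percentile 2.71 of its bin). The features of COL18A1 differed in sign, the positive one by less than the scatter between features. BC063833 (HG18 chromosome 21, 45649538 to 45756909) had 450.7 on the PAX2-labelled array and 388 on the control array (0.22), and NM_030582 (45699851 to 45758062) had 299.8 and 477 on those arrays (-0.67, 4.44th percentile). The annotated starts of these transcripts differ, and the gene mean of -0.23 describes neither feature. Among the 6 collagen genes with several features above the range on both arrays, COL18A1 was the 1 whose features did not share a sign.

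For 17 collagen genes no feature was above the silent range on either array. They include all 3 short-chain network collagens, COL8A1, COL8A2 and COL10A1, the last a marker of cartilage about to turn into bone. Over the 40 features within the range on both arrays, 2 had a computed 2-fold higher value and 5 a 2-fold lower one, against 7.90% higher and 9.30% lower among all 18014 such features. 28 of the 40 (70.0%) were below 0, against 51.9% of all. The 2 higher are features of COL1A2 and COL6A3, and the 5 lower of COL5A3, COL6A2, COL13A1, COL25A1 and COL28A1, named after their values were seen. No fold is given for them, since both arrays are at background. At the gene level COL13A1 (-1.29), COL5A3 (-1.44) and COL5A2 (-1.22) passed 2-fold in computed difference without being measured. Every feature of COL13A1 and COL5A3 was within the silent range on both arrays, so their values are computed only. With no filter these 3 of 41 collagen genes were 2-fold lower and 0 were higher. Among all 23595 genes 960 were lower and 755 higher.

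The machinery that folds, moves and cuts collagen was measured in large part and did not differ 2-fold. Its lists were written from textbook knowledge. Among all 11628 measured genes 1.13% were 2-fold higher and 1.16% lower, so short lists with no call are near that share. Of 19 genes that modify and fold the chains, 17 were measured, 0 were 2-fold different and the median difference was 0.02. The largest in each direction were P3H1, a prolyl 3-hydroxylase (0.30, from 0.23 to 0.37 over its 3 features), and P4HA3, a subunit of prolyl 4-hydroxylase (-0.27). SERPINH1, the collagen chaperone also called HSP47, had -0.09. Of 8 genes that carry procollagen out of the endoplasmic reticulum 7 were measured, with a median of 0.06, the highest value in the coat protein SEC23A (0.27) and the lowest in TRAPPC2 (-0.32).

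Of 13 genes that cut propeptides or crosslink fibrils 8 were measured, with a median of -0.09. LOXL3 (0.23) and LOX (-0.29), both lysyl oxidases, were the extremes, and BMP1, the procollagen C-proteinase, had 0.20. Of 11 collagen receptors 6 were measured, with MRC2, an endocytic collagen receptor, at 0.67 and the integrin chain ITGA2 at -0.43. Of 10 collagen-degrading enzymes 1 was measured, the lysosomal protease CTSL (-0.29). Of 14 fibril regulators and partners 4 were measured, with THBS1 at 0.46 and TNXB at -0.15.

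Of 17 regulators of collagen transcription 14 were measured, with a median of 0.23. In computed difference 2 passed 2-fold upward and 0 downward, against 1.13% upward and 1.16% downward among all 11628 measured genes. Over all the pathway lists together these were 2 of 57 measured genes (3.51%). Of the 2, NFIC alone was above the silent range on both arrays. NFIC, a nuclear factor I protein, had mean log2 intensities of 11.51 on the PAX2-labelled array and 10.30 on the control array, with all 3 features above 0 (0.93 to 1.54). SP3, a relative of SP1 that binds the GC box, had log2 7.94 on the PAX2-labelled array and 6.84 on the control array in 1 feature. It passed the filter on dim genes only through the PAX2-labelled array, and the control value is within the silent range, so the data bound SP3 at 1.84-fold higher or more, short of 2-fold. With the brightest feature in place of the mean NFIC was not called, and SP3 was not called under a 75th percentile filter or with an offset of 64 added to the intensities. SP1 itself had a difference of 0.29, and CEBPB the lowest value (-0.32).

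**Figure D4:**
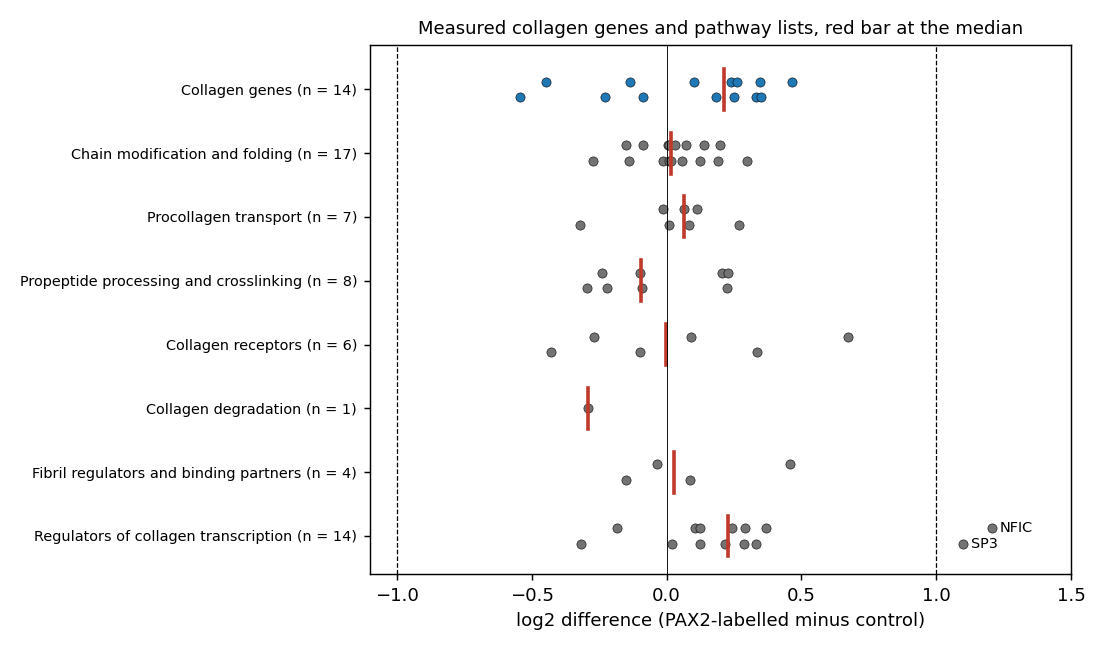
Log2 difference (PAX2-labelled minus control) of the measured collagen genes and of the measured members of 7 lists of collagen pathway genes, 1 point per gene, with a red bar at each median and dashed lines at 2-fold. NFIC and SP3 are the points past 2-fold, that of SP3 as computed from a control value within the silent range.

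Markers of cells that make fibrillar collagen were mostly silent. Of 10 fibroblast markers 4 were above the silent range on at least 1 array and 2 were measured, DCN (difference 0.09) and FBLN1 (log2 14.68 on the PAX2-labelled array and 14.40 on the control array). The summed intensity of the list was 27338 on the PAX2-labelled array and 22587 on the control array, nearly all of it FBLN1. As gene means, LUM, PDGFRA, THY1, POSTN, DPT and TCF21 were within the silent range on both arrays. None of 6 endothelial markers was above the range, and 1 of 6 leukocyte markers was (CD68, -0.54). SOX9 was the 1 measured of 6 chondrocyte markers (0.24). Their part in the small differences of COL1A1, COL5A1 and COL9A3 was not tested. In bulk RNA a change in the number of cells of a type and a change in RNA per cell cannot be told apart.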

How the data were processed

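Total RNA of 2 TE-1 cultures was read on NimbleGen arrays. The deposited values are linear intensities made by the authors with RMA, per the submitters' processing notes; its version, background step and between-array step are not known here. Names and coordinates are on HG18, per the file headers. The series table repeats all 45033 feature intensities. With Python 3.11.15 (pandas 2.3.3), log2 intensities were averaged over the features of a gene, joined by gene identifier to RefSeq symbols (38916 of 42947 features matched, all 72 collagen features among them), with no pseudocount or further normalization. Differences are PAX2-labelled minus control. The measured filter, the 2-fold threshold and the silent range stand in the results. Where 1 array was in the silent range, a fold is a lower bound against its top. The number of arrays limits the precision. All collagen genes are accounted for; the measured ones are named with values, and per pathway list the members past 2-fold or else the extremes. Other single features were chosen after their values were seen. The members, lists and rules were chosen with earlier results of these data known. Counting was tested on simulated data. Loess (fraction 0.3) used statsmodels 0.14.6.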

Additional observations from a re-analysis of the deposited data

How the results depend on the processing

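No paired analysis was possible because there is 1 array per condition. No measured collagen gene passed the threshold, and the median stayed between 0.17 and 0.22, under centring, quantile normalization, loess, the 75th percentile filter and an offset of 64. At 1.5-fold none passed either. The series table repeats the same intensities, and none can pass 3-fold where none passes 2-fold, so these 2 settings could give no other result. The median does not depend on the threshold. The brightest feature of a gene gave 1 lower gene (COL5A2), and no filter gave 3 lower genes (COL5A2, COL5A3 and COL13A1) and a median of -0.10 over all 41. The 2 pathway genes past 2-fold in computed difference became 1 with the brightest feature, the 75th percentile filter or the offset, 8 with no filter and 0 at 3-fold. The median was 0.09 with the brightest feature and 0.10 over features in place of genes, a setting added after seeing the data. Over all genes, 131 higher and 135 lower became 217 and 260 by the brightest feature, 755 and 960 unfiltered, 21 and 11 under the stricter filter, 68 and 91 by the offset, 524 and 374 at 1.5-fold and 28 and 55 at 3-fold. More or fewer genes enter under other filters. An offset added to both intensities shrinks each log2 difference by construction, and another threshold changes the count by definition. For the brightest feature the cause was not tested. COL18A1 turned to 0.22 with its brightest feature. Over 12 single features and 5 settings added after seeing the data no sign turned, and with the offset COL5A2 BC043613 was -1.21, COL3A1 BC028178 0.70 and COL4A3 NM_031363 0.91. Low signal over background limits 40 of the 72 features.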

Other observations

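Some genes of the collagen pathway had large computed differences without passing the filter on dim genes, and are given as values. ITGA11, a collagen-binding integrin chain, was higher on the PAX2-labelled array in both features (1.07 and 1.18), with mean log2 intensities of 5.80 on the PAX2-labelled array and 4.67 on the control array, within the silent range on both. RUNX2, a regulator of bone collagen genes, had a computed difference of -2.54 in 1 feature, also within it on both arrays. The collagenolytic protease CTSK had log2 7.03 on the PAX2-labelled array, above the silent range, and 5.57 on the control array, within it. The PAX2-labelled value of CTSK is below the top of the control array's silent range (log2 7.05). The data therefore give no bound for CTSK in either direction. FMOD (-1.09, features from -2.17 to -0.02), SPARC (-1.09, features from -2.80 to 0.62) and DPT (-1.93 in 1 feature) were within the range on both arrays. Among all features within the silent range on both arrays 7.90% had a computed value 2-fold higher and 9.30% one 2-fold lower.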
